A study of Mus musculus with 12 samples.

Results

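The 6 genes described are 4 keratins of simple epithelia (Krt7, Krt8, Krt18 and Krt19) and 2 small proline-rich genes (Sprr1a and Sprr2h), out of 24421 gene symbols in the count table. They were taken by symbol. Sprr1a and Sprr2h were chosen by their read counts, for being low in BACH1 knockout cells, so their levels by guide are given as a description, with no test. The cells were KP cells, a mouse lung adenocarcinoma line that carries Trp53flox/flox, a deletable Trp53. All 4 groups share the line's alleles, and the labels do not name the Cre that acted on them.

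Cells carried a control guide (sgCTRL) or a CRISPR/Cas9 guide against Bach1 (sgBACH1), and were kept for 48 hours with either a control siRNA (siCTRL) or one that targets Fem1b (siFEM1B). BACH1 represses transcription and is released from DNA by heme, while FEM1B is the substrate receptor of a ubiquitin ligase built on CUL2. Each of the 4 groups, sgCTRL with siCTRL, sgBACH1 with siCTRL, sgCTRL with siFEM1B and sgBACH1 with siFEM1B, had 3 libraries, described as biological replicates. The labels name a single line for each guide and do not say whether it is a clone or a pool, so an effect of the Bach1 guide cannot be told apart from other differences between the lines.

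Keratins are intermediate filament proteins that assemble as pairs of a type II and a type I chain. Krt8 with Krt18 is the founding pair of simple epithelia such as the lung alveolus and gut, and Krt7 (type II) and Krt19 (type I) join it in duct and airway epithelium and in many adenocarcinomas. Small proline-rich proteins are short, repetitive substrates that transglutaminases cross-link into the cornified envelope of squamous epithelium. Their genes sit side by side in the epidermal differentiation complex and are also switched on in injured or stressed simple epithelium.

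The sequences before the 2 Sprr transcript starts are shown because these genes moved furthest among the 6 and lie in 1 gene cluster. Each is the 250 bases upstream of the RefSeq start on GRCm38.p6, 5′ to 3′ on the gene's strand, with matches to the AP-1 motif TGANTCA in capitals. AP-1 motifs are bound by FOS and JUN proteins, and BACH1 binds a longer element built around the same letters.
Sprr1a, minus strand, chr3:92485882-92486131: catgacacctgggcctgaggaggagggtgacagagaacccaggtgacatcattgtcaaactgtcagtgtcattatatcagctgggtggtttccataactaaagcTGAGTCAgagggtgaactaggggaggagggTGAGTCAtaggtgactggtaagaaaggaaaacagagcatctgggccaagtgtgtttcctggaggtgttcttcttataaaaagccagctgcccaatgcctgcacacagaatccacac
Sprr2h, plus strand, chr3:92385435-92385684: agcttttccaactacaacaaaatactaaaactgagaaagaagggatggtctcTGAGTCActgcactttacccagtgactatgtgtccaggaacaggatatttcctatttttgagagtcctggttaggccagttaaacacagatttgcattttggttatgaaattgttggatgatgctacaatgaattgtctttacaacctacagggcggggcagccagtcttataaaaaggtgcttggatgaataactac

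The Sprr1a promoter held the AP-1 motif at 2 places, 146 to 140 and 116 to 110 bases before the start, and Sprr2h held it once, 198 to 192 bases before the start. Of 32851 mouse promoters of this length, 6.75% held the motif on either strand. Promoter sequences were found for 14 of the 16 Sprr symbols, and 9 of these 14 held it. The longer core TGANTCAGC of MAF and BACH elements, which contains the AP-1 motif, was in 1.02% of all promoters and in 1 of the 14, Sprr1a, 148 to 140 bases before the start on the opposite strand. The sequence TATAAA was in 12.4% of all promoters and in 10 of 14, and the interferon-stimulated response element in 2.98% and in 0 of 14. The KLF and SP box CCNCNCCC was in 45.9% of all promoters, in 4 of 14 Sprr promoters and in those of Krt7, Krt8 and Krt18; Krt19 had no promoter entry. An octamer, ATTTGCAT, was searched only after the sequences had been read; it was in 1.6% of all promoters and in 7 of 14, all of them Sprr2 genes. These matches are letters in a window and show no binding.

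7 Sprr2 copies carry the AP-1 motif at nearly the same place, between 198 and 187 bases before the start, and 5 windows of 37 bases around it are shown to compare copies with many and with few counts. All are on the plus strand of chromosome 3, and AP-1 matches are in capitals.
Sprr2h, chr3:92385472-92385508: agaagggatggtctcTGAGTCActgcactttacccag
Sprr2e, chr3:92351935-92351971: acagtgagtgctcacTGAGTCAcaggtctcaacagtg
Sprr2k, chr3:92432371-92432407: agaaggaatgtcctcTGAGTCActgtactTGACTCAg
Sprr2d, chr3:92338932-92338968: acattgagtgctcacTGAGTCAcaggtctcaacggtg
Sprr2f, chr3:92364975-92365011: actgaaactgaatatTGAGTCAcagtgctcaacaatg
The flanking letters differ between copies, and Sprr2k holds the motif again at 182 to 176 bases. Sprr2d and Sprr2f hold the motif as Sprr2h and Sprr2e do but did not exceed 15 and 4 counts in any library.

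**Figure D1:**
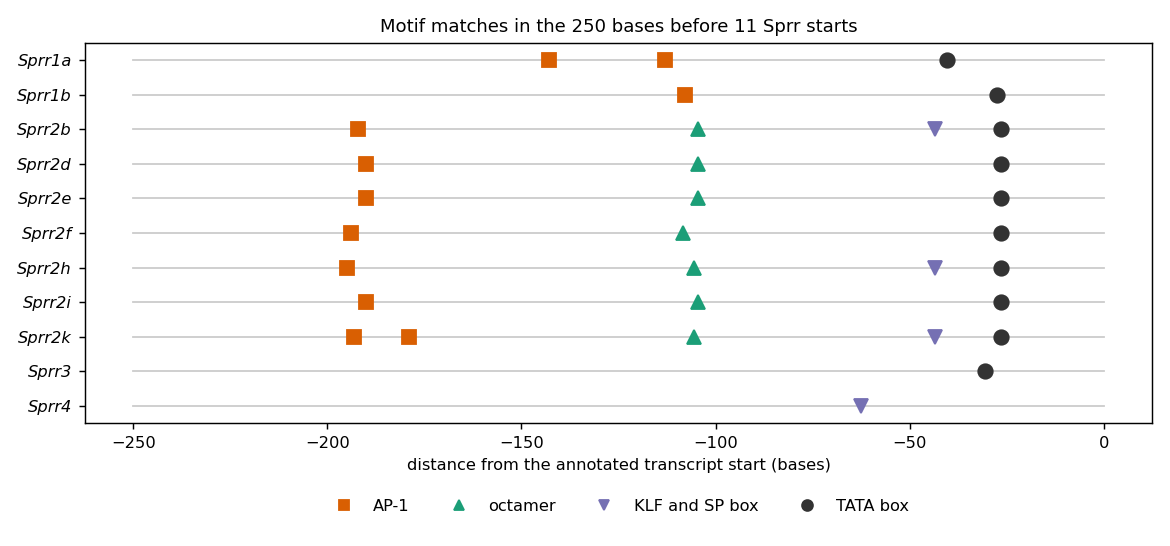
Motif matches in the 250 bases before the start of the 11 Sprr genes whose promoter held any of 4 motifs, 1 line per gene, with distance from the annotated start in bases on the horizontal axis and 1 symbol per match. The 7 Sprr2 promoters with matches show the same order of AP-1, octamer and TATA box, while Sprr1a holds the AP-1 motif at 2 places and no octamer.

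Near-identical copies are a caution for the Sprr2 genes. The first 90 coding bases of 4 copies are shown on the coding strand, with capitals where a copy differs from Sprr2h.
Sprr2h: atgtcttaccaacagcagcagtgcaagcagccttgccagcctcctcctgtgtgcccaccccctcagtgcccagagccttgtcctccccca
Sprr2e: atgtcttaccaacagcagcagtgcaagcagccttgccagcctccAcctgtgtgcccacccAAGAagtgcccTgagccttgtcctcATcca
Sprr2a1: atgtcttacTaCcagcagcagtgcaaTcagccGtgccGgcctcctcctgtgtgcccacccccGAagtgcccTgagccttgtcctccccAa
Sprr2k: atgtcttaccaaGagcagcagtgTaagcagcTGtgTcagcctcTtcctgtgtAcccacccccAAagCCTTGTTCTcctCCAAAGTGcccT
Over these bases Sprr2e was 91.1%, Sprr2a1 90% and Sprr2k 70% the same as Sprr2h, position by position. Across the whole transcript, none of the 50-base stretches of Sprr1a, Sprr2h or Sprr2k occurred in a transcript of another annotated gene, against 10.2% of those of Sprr2e. Sprr2a1 and Sprr2a2 had identical counts in all 12 libraries, and so cannot be told apart. Among the keratins, 29.7% of the 50-base stretches of Krt8 also occurred in Krt8-ps or Gm36026, 0.72% of those of Krt18 in Gm17847 or Gm5200, 0.222% of those of Krt7 in Rrnad1, and none of those of Krt19 elsewhere. The read length is not given in the sources used here, so values of Krt8 and Sprr2e are the least certain. Proline codons made up 46 of 144 codons of Sprr1a and 46 of 108 of Sprr2h, against 0.946% to 1.75% in the 4 keratins.

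Total counts were 16539168 to 22196999 per library, so that 1 count was worth 0.0446 to 0.0603 CPM (the count scaled to a common library total, with a composition factor). All 6 genes passed the filter on low counts, as did 13281 genes in all. The Fem1b transcript, targeted by the siRNA, changed by -1.66 ± 0.08 (log2, SE) in control and -1.51 ± 0.08 in knockout cells (edgeR, adjusted p = 2.77e-11 and 1.66e-10). Bach1 transcripts did not differ by guide under siCTRL (-0.09, adjusted p = 0.344), so transcript level does not check the knockout. Of 9 alveolar type 2 markers, Nkx2-1, Sftpa1 and Sftpd were at 0 in every library and Sftpc, Sftpb and Napsa under 10 counts, while Lamp3, Abca3 and Etv5 passed the filter and the list summed to between 172.9 and 203.8 CPM. Of 6 alveolar type 1 markers, Hopx and Pdpn were under 10 counts and 4 passed, with sums of 631.2 to 658.3 CPM under siCTRL and 464.7 to 535.2 CPM under siFEM1B. The part of either list in the results was not tested. Krt5, a basal keratin, was at 0, and 8 of 9 leukocyte markers were under 10 counts in every library.

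Per kilobase of transcript, the order of the 6 genes differed between groups. In control cells under siCTRL it was Krt18 (1962.8 CPM per kilobase), Krt19 (1327.7), Krt8 (1100.8), Krt7 (423.2), Sprr1a (322.4) and Sprr2h (30.2), with no overlap between neighbours. In control cells under siFEM1B, Sprr1a reached 1096.1 CPM per kilobase and overlapped Krt8 (1057), above Krt7 (351.4). In knockout cells under siCTRL, Sprr1a stood at 12.7 and Sprr2h at 0.623 CPM per kilobase, far below Krt7 at 109. In knockout cells under siFEM1B, Krt19 (1537.5) and Krt18 (1500.7) overlapped. The Krt7 transcript used, 4094 bases, runs past the RefSeq gene end, and its value per kilobase depends on that length.

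**Figure D2:**
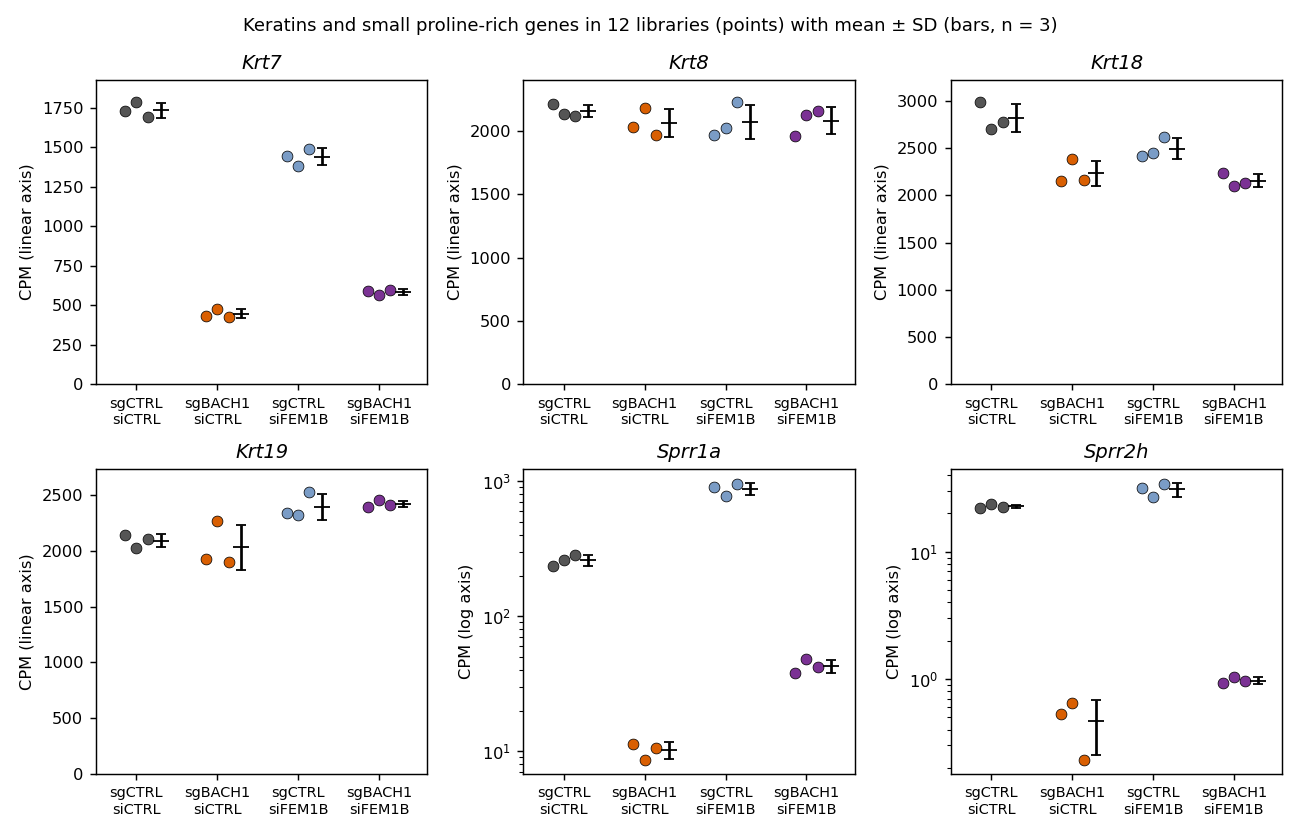
CPM of each gene in the 12 libraries (points), with mean and SD of the 3 libraries of each group (bars); the keratin axes are linear from 0 and the Sprr axes logarithmic. Krt7, Sprr1a and Sprr2h, and narrowly Krt18, separate by guide in every library, while Krt8 overlaps in all 4 groups.

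Krt7 (chr15:101412403-101427806) differed most by guide of the 4 keratins. Under siCTRL it stood at 1727.7, 1783.2 and 1687.4 CPM in control cells and at 435.4, 479.3 and 424.1 CPM in knockout cells. Under siFEM1B the control cells had 1443.6, 1382 and 1489.7 CPM and the knockout cells 591.3, 563.3 and 599.1 CPM. The 4 groups did not overlap: both knockout groups lay below both control groups, and siFEM1B brought the guides closer from both sides. The level was 3.88-fold lower in knockout cells under siCTRL (log2 -1.96 ± 0.06, edgeR adjusted p = 2.12e-16) and 2.46-fold lower under siFEM1B (-1.3 ± 0.05, adjusted p = 1.37e-13). The siRNA lowered Krt7 in control cells (-0.27 ± 0.05, edgeR adjusted p = 0.000364) and raised it in knockout cells (0.39 ± 0.05, adjusted p = 9.31e-06). The difference between these opposite effects was itself past the threshold (0.66 ± 0.08, edgeR adjusted p = 5.97e-05), where 6.08% of all genes were, 3.48% higher and 2.60% lower; it was the 1 member of 6 called there.

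Krt8 (chr15:101996711-102004342), the type II chain that pairs with Krt18, stayed within a narrow band. It stood at 2212.7, 2133.8 and 2119.7 CPM in control cells and 2030.5, 2180.5 and 1965.6 CPM in knockout cells under siCTRL. Under siFEM1B it stood at 1963.2, 2021.6 and 2224 CPM in control cells and 1960, 2122.4 and 2157.9 CPM in knockout cells. The groups overlapped in all 4 pairings. No contrast passed the test: the 4 log2 differences lay between -0.07 and 0.01, each ± 0.06 (edgeR adjusted p = 0.348 to 0.923).

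Krt18 (chr15:102028216-102032026), the type I partner, was slightly lower in knockout cells. Under siCTRL the control cells had 2985.3, 2699.5 and 2776.7 CPM and the knockout cells 2155.6, 2388.8 and 2160.4 CPM. Under siFEM1B the values were 2416.7, 2448.4 and 2619.5 CPM in control cells and 2237.6, 2097.7 and 2134.3 CPM in knockout cells. The guides did not overlap under either siRNA. The log2 difference was -0.34 ± 0.06 under siCTRL (edgeR adjusted p = 4.36e-05) and -0.21 ± 0.06 under siFEM1B (adjusted p = 0.00328). Krt7, Krt8 and Krt18 lie on chromosome 15, whose median gene differed by -0.15 and -0.12 in these 2 contrasts, and the siFEM1B difference was -0.08 (adjusted p = 0.242) once chromosome medians were removed. In control cells siFEM1B lowered Krt18 by a small amount (-0.18 ± 0.06, adjusted p = 0.0133), a call lost without control siCTRL replicate 1 (-0.13, adjusted p = 0.0736) and without control siFEM1B replicate 1 or 2 (adjusted p = 0.0614 and 0.0621). In knockout cells the siRNA difference was -0.05 (adjusted p = 0.486).

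Krt19 (chr11:100140810-100145926), the smallest type I keratin, differed by siRNA and not detectably by guide. Control cells had 2142.3, 2025.5 and 2109.4 CPM under siCTRL and 2342.7, 2322.7 and 2533.6 CPM under siFEM1B. Knockout cells had 1931.7, 2267.7 and 1900.8 CPM under siCTRL and 2397.4, 2455.9 and 2415.9 CPM under siFEM1B. Every siFEM1B library lay above every siCTRL library of either guide. The rise was 1.15-fold in control cells (log2 0.2 ± 0.06, edgeR adjusted p = 0.0111) and 1.19-fold in knockout cells (0.25 ± 0.06, adjusted p = 0.0021). The first of these missed the threshold without control siCTRL replicate 2 (0.17, adjusted p = 0.0511). By guide the differences were -0.04 and 0.01 (adjusted p = 0.594 and 0.86).

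Of the 4 keratins, 2 were lower and 0 higher in knockout cells under siCTRL, where 26.3% of all genes were called lower, 24.2% higher and 50.5% in all. Under siFEM1B, 2 were again lower and 0 higher, where 26.4% of all genes were lower, 28.2% higher and 54.6% called in all. All libraries of one guide lay above the other for 28.7% (higher in knockout) and 31.6% (lower) of genes under siCTRL, and for 29.1% and 27.9% under siFEM1B. Under siFEM1B against siCTRL, 1 keratin was higher and 2 lower in control cells, where 22.1% of all genes were higher, 22.9% lower and 45.0% called in all. In knockout cells 2 were higher and 0 lower, where 21.9% of all genes were higher, 19.8% lower and 41.7% called in all. By siRNA, 25.3% of genes had all libraries higher and 26.9% lower in control cells (52.1% without overlap), against 27.3% and 24.3% in knockout cells (51.5% without overlap). Counts out of 4 genes are too few to compare with the shares over all genes, so the keratins are described gene by gene.

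The unequal changes show in ratios within a library. The ratio of Krt7 to Krt8 counts was 0.781 to 0.836 in control cells under siCTRL, 0.67 to 0.735 in control cells under siFEM1B, 0.214 to 0.22 in knockout cells under siCTRL and 0.265 to 0.302 in knockout cells under siFEM1B. Krt8 to Krt18 counts stood at 0.741 to 0.79, 0.812 to 0.849, 0.91 to 0.942 and 0.876 to 1.01 in the same order, and Krt19 to Krt18 at 0.718 to 0.76, 0.949 to 0.969, 0.88 to 0.949 and 1.07 to 1.17. Summed per kilobase, type II chains (Krt7 and Krt8) were 0.452 to 0.482 of type I chains (Krt18 and Krt19) in control cells under siCTRL and 0.397 to 0.419 in knockout cells under siCTRL. The 4 keratins made up 96.2% to 98.1% of all keratin counts in every library. Their share of all counts was 0.86% to 0.912% in control and 0.643% to 0.726% in knockout cells under siCTRL.

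Sprr1a (chr3:92483954-92485881), a cornified envelope precursor also known as a gene of wounded epithelium and regenerating nerve, differed between all 4 groups. Control cells under siCTRL had 236.1, 260.9 and 282.6 CPM and knockout cells 11.4, 8.63 and 10.6 CPM. Under siFEM1B the control cells had 914.7, 783.3 and 952.5 CPM and the knockout cells 38.1, 48 and 42.1 CPM. The groups did not overlap, and knockout cells under siFEM1B lay below control cells under siCTRL. The level was 25.4-fold lower in knockout cells under siCTRL and 20.7-fold lower under siFEM1B, the difference for which the gene was chosen, where 60.3% and 57.0% of all genes had libraries that did not overlap by guide.

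Sprr1a was chosen by its difference between guides. The low knockout siCTRL libraries behind that choice are also the baseline of its siRNA contrast in knockout cells. Sprr1a rose 3.4-fold under siFEM1B in control cells (log2 1.77 ± 0.09, edgeR adjusted p = 1.68e-11) and 4.17-fold in knockout cells (2.06 ± 0.11, adjusted p = 1.66e-10), 3 of 3 libraries lying above all siCTRL libraries in both. The difference between the effects was 0.3 ± 0.14 (edgeR adjusted p = 0.215), and passed only with no filter on low counts (0.3, adjusted p = 0.0365).

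Sprr2h (chr3:92385685-92387324), a Sprr2-type envelope precursor, was the lowest of the 6. Control cells had 488, 501 and 448 counts under siCTRL (22.2, 23.6 and 22.5 CPM) and 712, 550 and 632 counts under siFEM1B (31.7, 26.8 and 34.3 CPM). Knockout cells had 10, 13 and 5 counts under siCTRL (0.526, 0.648 and 0.231 CPM) and 19, 19 and 16 counts under siFEM1B (0.921, 1.03 and 0.965 CPM). The groups did not overlap, and the knockout values rest on few reads. The level was 48.6-fold lower in knockout cells under siCTRL and 31.7-fold lower under siFEM1B, again the difference for which it was chosen. It rose under siFEM1B 1.36-fold in control cells (log2 0.44 ± 0.11, edgeR adjusted p = 0.00207) and 2.08-fold in knockout cells (1.06 ± 0.33, adjusted p = 0.0141). The second call has as its baseline the low knockout libraries that entered the choice of the gene. It was lost without knockout siCTRL replicate 3 (0.71, adjusted p = 0.095) and with only the 2 groups compared in the fit (1.04, adjusted p = 0.0574). In control cells both Sprr genes were called higher under siFEM1B, where 22.1% of all genes were. Their calls in knockout cells, where 21.9% of all genes were higher, rest on the low baseline that entered their choice.

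**Figure D3:**
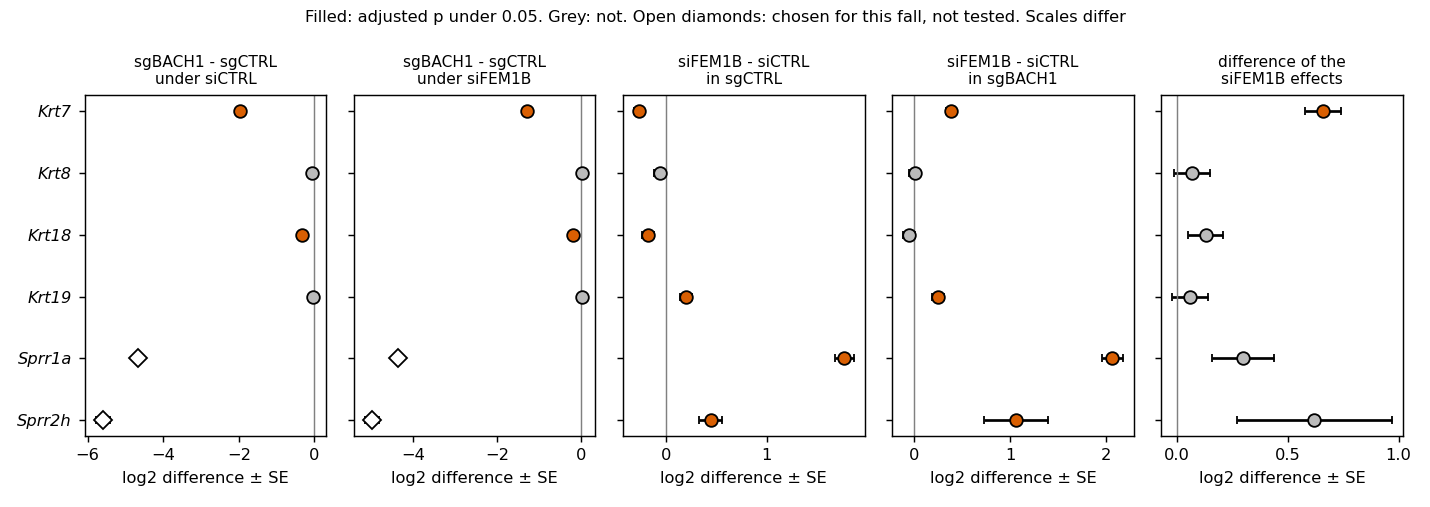
Log2 difference with its SE (bars) for the 6 genes in the 5 contrasts; filled circles passed an adjusted p of 0.05, grey circles did not, and open diamonds are the knockout differences for which the Sprr genes were chosen. Krt7 lies left of 0 in control cells and right of 0 in knockout cells under siFEM1B, and Sprr1a lies right of 0 in both.

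The 16 Sprr symbols lie within 284.7 kb of chromosome 3 with no other symbol of the table between them. Besides Sprr1a and Sprr2h, 4 passed the filter (Sprr1b, Sprr2a3, Sprr2e and Sprr2k), and 9 were under 10 counts in every library. All 4 passed through their control libraries, so their values by guide are a description. Sprr2e had 87 to 90 counts per library in control and 3 to 4 in knockout cells under siCTRL, and 191 to 252 against 4 to 8 under siFEM1B. Sprr1b had 56 counts over the 3 control libraries and 1 over the 3 knockout libraries under siCTRL, a ratio of 53.8. Its exact 95% interval, 9.27 to 2162.7, covers counting error in the pooled counts only and is no test of the guides. Sprr2k had 35 counts against 0, at least 11.2-fold lower in knockout cells (3 counts over the group as floor). Sprr2d, which shares the promoter pattern, did not exceed 15 counts in any library.

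Sprr2e and Sprr1b also reached the filter's minimum in control cells under siCTRL, so their siRNA tests there do not share that choice. In control cells siFEM1B raised Sprr2e (log2 1.36 ± 0.17, edgeR adjusted p = 2.13e-06), while Sprr1b (0.74, adjusted p = 0.112) did not pass. Sprr2k and Sprr2a3 reached the minimum in every control library only under siFEM1B, so they are given as counts with no test. Sprr2k had 6 to 17 counts per control library under siCTRL and 33 to 40 under siFEM1B, and Sprr2a3 had 7 to 8 against 10 to 21. In knockout cells none of the 4 passed, at counts of 8 or fewer per library (Sprr2e 0.95, adjusted p = 0.171). All Sprr2 symbols summed gave 27.9 to 29.6 CPM in control and 0.684 to 1.05 CPM in knockout cells under siCTRL, and 39.5 to 52.9 against 1.46 to 1.63 CPM under siFEM1B. Tested as 1 feature, this sum rose under siFEM1B, with a log2 difference of 0.68 in control and 0.92 in knockout cells (edgeR adjusted p = 1.07e-05 and 0.00709). The sum contains Sprr2h and so is not separate from the test of that gene. Its baseline in knockout cells was 13 to 21 counts per library, in the low libraries that entered the choice of Sprr2h. Sprr2h took 78.6% to 79.8% of Sprr2 counts in control cells under siCTRL and 64.8% to 70.1% in control cells under siFEM1B.

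**Figure D4:**
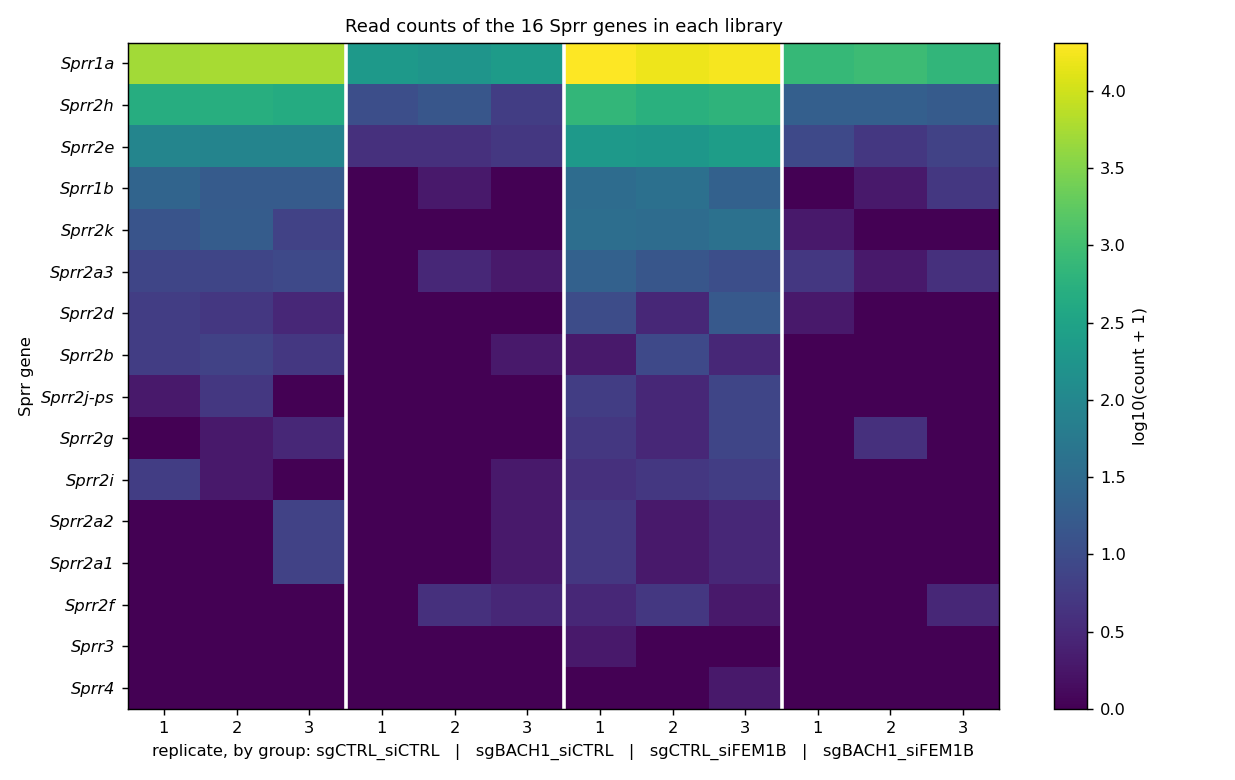
Read counts of the 16 Sprr genes (rows, most counts at the top) in the 12 libraries (columns, by group and replicate), coloured by log10 of the count plus 1. The 6 knockout columns are darker than the 6 control columns from Sprr1a down to Sprr2k, and the lower rows are near 0 throughout.

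Immediately beyond the cluster, involucrin (Ivl), another envelope precursor, was the other gene within 100 kb that passed the filter. It had 20 to 42 counts per library in control and 5 to 6 in knockout cells under siCTRL, and 29 to 52 against 7 to 25 under siFEM1B. It passed mainly through its control libraries, so these are given with no test. The median gene of chromosome 3 differed by -0.14 and -0.13 in these contrasts.

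The table holds 52 keratin symbols, of which 14 were at 0 in every library, 16 more were under 10 counts, and 16 passed the filter, 12 of them beside the 4 already described. Of the 12, 4 were higher and 4 lower in knockout cells under siCTRL, where 24.2% of all genes were higher and 26.3% lower. Under siFEM1B 3 were higher and 4 lower, where 28.2% and 26.4% of all genes were. Both counts include genes with one guide's libraries near or under the filter's minimum, so they are a description. Krt23, a type I keratin of gut and pancreas epithelium under stress, rose from 6.46 ± 0.518 to 72.1 ± 4.23 CPM in knockout cells (SD, n = 3; log2 3.48 ± 0.11, edgeR adjusted p = 1.62e-15). Krt13, a type I keratin of internal squamous epithelium, rose from 4.85 ± 1.18 to 18 ± 1.56 CPM (1.88 ± 0.14, edgeR adjusted p = 9.45e-10). Krt80 fell from 22.4 ± 0.74 to 12.7 ± 1.96 CPM (-0.82 ± 0.12, edgeR adjusted p = 1.02e-05). The hair keratin Krt83 had 55 to 112 counts per library in control and 7 to 19 in knockout cells under siCTRL. The knockout counts are near or under the filter's minimum, so no test is given. Krt20 passed by little (0.14, adjusted p = 0.0301), and the call was lost under 5 of 18 alternatives. The other 3 of the 8 calls were likewise of genes with one guide's libraries near or under the filter's minimum, and are given as counts with no test. Under siCTRL, Krt85, another hair keratin, had 17 to 44 counts per library in control and 0 to 11 in knockout cells, Krt14, a basal keratin, 10 to 14 against 3 to 7, and Krt78 5 to 10 against 16 to 25. Krt10, Krt27, Krt36 and Krt79 did not pass under siCTRL.

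Under siFEM1B against siCTRL, 4 of the 12 were higher and 1 lower in control cells (22.1% and 22.9% of all genes), and 2 higher and 1 lower in knockout cells (21.9% and 19.8%). In control cells Krt20, a gut keratin, rose from 122.8 ± 6.55 to 165.3 ± 3.42 CPM (SD, n = 3; log2 0.43 ± 0.05, edgeR adjusted p = 1.84e-06), and in knockout cells from 135.4 ± 3.44 to 163.7 ± 4.38 CPM (0.27 ± 0.05, adjusted p = 0.000288). Krt14 rose in control cells from 0.584 to 1.48 CPM (1.33 ± 0.33, edgeR adjusted p = 0.0025), from 10 to 14 counts per library under siCTRL, which only just reached the filter's minimum. Krt23 rose in control cells (0.7 ± 0.13, adjusted p = 0.000172) and stood at -0.07 in knockout cells (adjusted p = 0.577); that difference was past the threshold (-0.76 ± 0.15, edgeR adjusted p = 0.00721). Krt13 showed the same arrangement (0.79 and 0.06), but its difference of -0.73 (adjusted p = 0.0318) was lost under 7 of 17 alternatives. Krt83, also among those counted higher in knockout cells, had 7 to 19 counts per library there under siCTRL and 32 to 44 under siFEM1B. That baseline is near or under the filter's minimum, so no test is given. Krt80 fell in knockout cells (-0.54 ± 0.13, adjusted p = 0.0025).

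**Figure D5:**
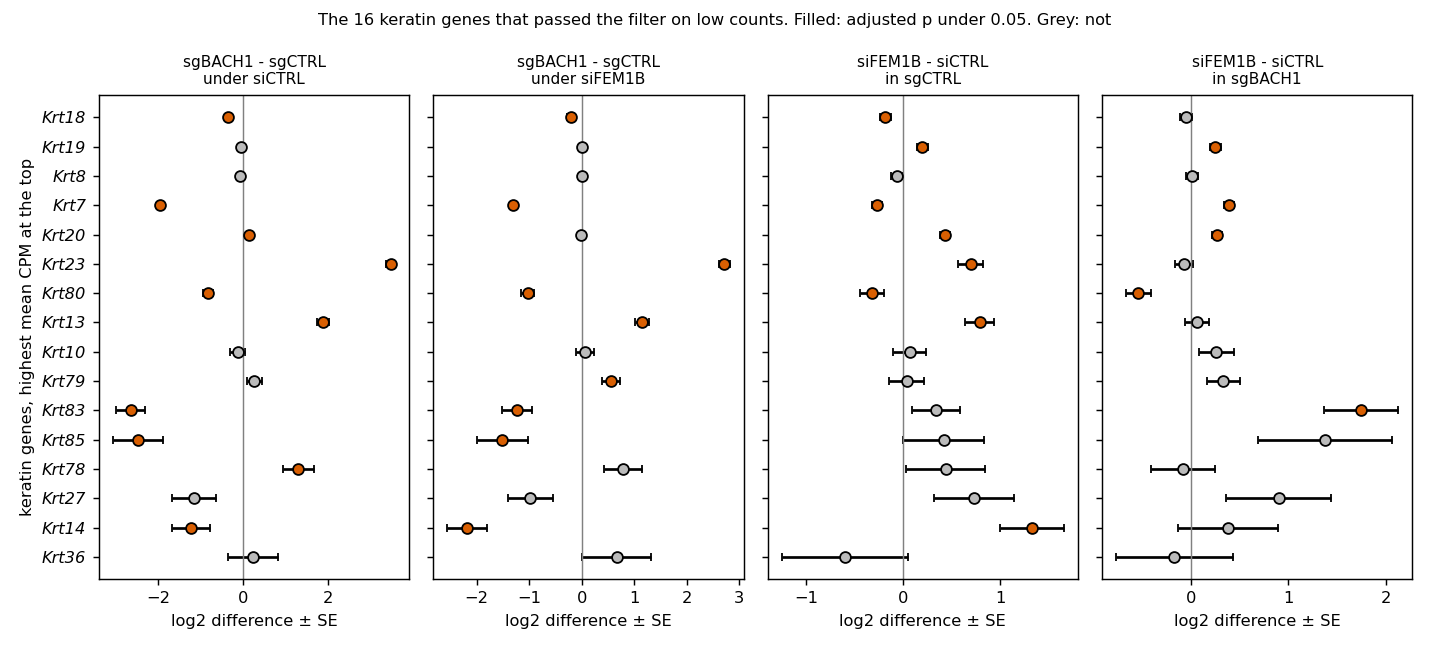
Log2 difference with its SE (bars) of the 16 keratin genes that passed the filter in 4 contrasts, ordered by mean CPM with the highest at the top; filled circles passed an adjusted p of 0.05 and scales differ between panels. By guide, Krt83, Krt85, Krt14 and Krt78 are a description whatever their fill, as one guide's libraries are near or under the filter's minimum. Krt23 lies furthest right and Krt83 furthest left in knockout cells under siCTRL, while the 3 highest keratins stay near 0.

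Envelope, desmosome and regulator genes were read from lists. Of 9 cornified envelope genes that passed the filter, 3 were higher and 3 lower in knockout cells under siCTRL (median log2 0.23, against -0.02 over all genes, of which 24.2% were higher and 26.3% lower). The lower ones include Ivl, which passed mainly through its control libraries, so this count is a description. Envoplakin (Evpl), which ties the envelope to keratin filaments, rose (1.7 ± 0.14, edgeR adjusted p = 3.05e-09), while periplakin (Ppl), its partner, fell (-0.72, adjusted p = 6.89e-07). Under siFEM1B, 5 of the 9 were higher and 1 lower in control cells (median 0.51, against 0 over all genes), and 6 higher and 1 lower in knockout cells (median 0.44, against 0.02). Over all genes, 22.1% were higher and 22.9% lower in control cells, and 21.9% and 19.8% in knockout cells. Evpl rose under siFEM1B in both (1.09, adjusted p = 4.63e-06, and 0.63, adjusted p = 0.000227), as did cystatin B (Cstb, 0.51 and 0.49, adjusted p = 4.01e-06 and 8.36e-06). Tgm1, the transglutaminase of the envelope, had 8 counts or fewer in every library. Of 10 S100 genes of the neighbouring region, 7 were higher and 0 lower under siFEM1B in control cells (22.1% and 22.9% of all genes). In knockout cells 8 were higher and 0 lower (21.9% and 19.8%). S100a14 rose in both (1.53, edgeR adjusted p = 7.35e-06, and 1.5, adjusted p = 2.21e-05).

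Among 15 filament partners such as desmosome and hemidesmosome proteins, 6 were higher and 6 lower in knockout cells under siCTRL, where 24.2% of all genes were higher and 26.3% lower. The higher ones include Dsp and Dsg2, which passed the filter through the knockout libraries, so this count is a description. Desmoplakin (Dsp), which anchors keratin filaments at desmosomes, had 0 to 6 counts per control library and 32 to 69 per knockout library; it passed the filter through the knockout libraries, so no test is given. Desmoglein 2 (Dsg2), a desmosomal cadherin, had 0 counts in control cells and 115 over the knockout libraries, at least 39.9-fold higher (3 counts over the group as floor). Plakophilin 1 (Pkp1) rose from 28.2 to 149.2 CPM (log2 2.4 ± 0.17, edgeR adjusted p = 5.07e-10) and integrin beta 4 (Itgb4) fell (-0.72, adjusted p = 5.93e-08). Under siFEM1B 7 of the 15 were higher and 0 lower in control cells (22.1% and 22.9% of all genes) and 8 higher and 1 lower in knockout cells (21.9% and 19.8%), with plakophilin 3 (Pkp3) up in both (1.18, adjusted p = 2.54e-07, and 1.32, adjusted p = 1.81e-07).

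Of 9 simple epithelial genes, 5 were higher and 3 lower in knockout cells under siCTRL, against 24.2% and 26.3% of all genes. E-cadherin (Cdh1) rose from 321.5 to 644.7 CPM (log2 1 in the fit, edgeR adjusted p = 2.8e-11) and claudin 4 (Cldn4) fell (-2.27, adjusted p = 1.47e-06). Epcam, a common epithelial surface marker, had only 2 counts over the 3 control libraries and 19 over the knockout libraries under siCTRL, a ratio of 9.89. Its exact 95% interval, 2.39 to 87.5, covers counting error in the pooled counts only and is no test of the guides. Epcam is among the 5 higher and passed the filter through knockout libraries, so that count is a description. Vimentin (Vim), the mesenchymal intermediate filament, stood at 5215.1 ± 230.6 CPM in control and 5987.3 ± 364.6 CPM in knockout cells (SD, n = 3), a difference of 0.2 (adjusted p = 0.033) lost under 4 of 18 alternatives. Under siFEM1B, 7 of the 9 were higher in control and 8 in knockout cells (22.1% and 21.9% of all genes), with 0 lower in either.

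Of 19 regulators of keratin and squamous genes, 6 were higher and 8 lower in knockout cells under siCTRL (median -0.06), against 24.2% and 26.3% of all genes. Sox9 fell (-0.61, edgeR adjusted p = 2.96e-07), Klf4 fell (-0.38, adjusted p = 0.000204) and Sox2 rose (1.1, adjusted p = 1.69e-06). The AP-1 genes did not move together: Junb and Fosl1 were higher (0.55 and 0.54, adjusted p = 5.26e-06 and 1.08e-05), Fosl1 losing its call with chromosome medians removed (0.11, adjusted p = 0.262). Jund and Fos were lower (-0.46 and -0.57, adjusted p = 5.32e-05 and 0.0103), and Jun, Fosb and Fosl2 stood at -0.06, -0.16 and 0.09 and did not pass. These 5 were named after their values were seen, and the Fos call was lost under 3 of 18 alternatives: without control siCTRL replicate 3, without knockout siCTRL replicate 1, and with chromosome medians removed, which gave the smallest difference (-0.33, adjusted p = 0.133). Under siFEM1B, 9 were higher and 1 lower in control cells (22.1% and 22.9% of all genes) and 5 higher and 2 lower in knockout cells (21.9% and 19.8%). Elf3, an epithelial ETS factor, rose in both (1.49, adjusted p = 6.28e-09, and 1.37, adjusted p = 2.78e-08), and so did Fos (1.62, adjusted p = 4.28e-08, and 2.01, adjusted p = 1.3e-08). Klf5 fell in knockout cells (-0.52, adjusted p = 9.66e-05). Trp63, the master regulator of squamous epithelium, had 4 counts or fewer in every library.

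The genes whose pattern over the 12 libraries was most like each of the 6 were found among 9550 genes by the root mean square difference of centred log2 CPM, a distance in log2 units that uses the same libraries and so carries no test. For Krt7 they were Morc4 (0.15), Htatip2 (0.2) and Ank (0.2). For Krt8 they were Eif4a3 (0.04), Atp5c1 (0.04) and Aimp1 (0.05), and for Krt18 Dgcr6 (0.04), Dcaf4 (0.04) and Ctnnbl1 (0.05). Krt19 was nearest to Cyhr1, Marc2 and Tnfrsf12a (0.05 each). Sprr1a was nearest to Ccl5 (0.47), Oasl2 (0.47) and Tmem176a (0.63), and Sprr2h to Ifitm1 (0.42), Tmem176b (0.52) and Tmem176a (0.61). Ccl5, which encodes a chemokine, went from 28 to 1.52 CPM by guide under siCTRL and from 60 to 4.27 CPM under siFEM1B. Between the 6 themselves the distance was 0.74 for Sprr1a and Sprr2h, 0.13 for Krt8 and Krt19, 0.14 for Krt8 and Krt18, and 0.82 for Krt7 and Krt8. The genes' own SD in log2 CPM was 0.07 for Krt8, 0.14 for Krt19, 0.17 for Krt18, 0.87 for Krt7, 2.56 for Sprr1a and 2.72 for Sprr2h. A small distance between genes that barely vary, such as Krt8 and Krt19, does not show that they move together.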

How the data were processed

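The authors deposited whole-number read counts per gene symbol, not normalized, for 12 poly(A) libraries made with a stranded kit, per the labels. The submitters' processing notes name Subread, featureCounts 1.6.4, SAMtools 1.9, DESeq2 1.26.0 and mm10; annotation, strand setting and read length were not given in the sources used here. Part of the line's genotype is not reported here. Members and lists were chosen with earlier results of these data known.

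1 edgeR 4.0.16 model (R 4.3.3; TMM factors 0.989 to 1.01; filterByExpr at a minimum count of 10) had a mean per group over all 12 libraries, leaving 8 residual degrees of freedom. Two-sided quasi-likelihood tests were adjusted (Benjamini-Hochberg) over all 13281 genes and called under 0.05; the test was tested on simulated data. SE is approximate, from the F statistic. In each list, up to 4 kept genes with the smallest p per contrast were named, plus 10 set genes and all kept Krt and Sprr genes. Alternatives were RLE factors, DESeq2 1.42.0, no filter, the compared groups alone, a replicate block, chromosome medians removed, Sprr2 symbols summed and each library left out. Replicate libraries differed by 2.5 to 13.7 in chi-square per degree of freedom, so each counted as 1 sample. Lengths and shared stretches are from GENCODE M21, positions and promoters from RefSeq GRCm38.p6, the build of mm10. Intervals cover counting error only. Fewer expressing cells and less RNA per cell cannot be told apart in bulk RNA.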

Additional observations from a re-analysis of the deposited data

Results flagged for a closer look

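Krt7 responded to siFEM1B in opposite directions in the 2 genotypes, and the difference itself was tested. The log2 effect was -0.27 in control cells and 0.39 in knockout cells, 3 of 3 libraries moving that way in each, and their difference was 0.66 ± 0.08 (edgeR, adjusted p = 5.97e-05). Over 17 alternatives it ranged from 0.61 to 0.71 and stayed past the threshold, with adjusted p from 5.37e-15 to 0.000589. Krt8, Krt18 and Krt19 gave differences of 0.07, 0.13 and 0.06, none past the threshold. Krt23, among the other keratins, gave a difference of opposite sign (-0.76).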

How the results depend on the processing

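Of the values of the 6 genes under the alternatives, 519 kept their direction and call, 7 lost a call, 2 gained one and 11 changed sign. The 11 were all uncalled differences near 0. Krt19 by guide under siCTRL was 0.01 without knockout siCTRL replicate 3 and 0.03 with chromosome medians removed, and under siFEM1B it was -0.01 and -0.02 without control siFEM1B replicates 1 and 2. Krt8 by guide under siCTRL was 0.08 with chromosome medians removed. Under siFEM1B it was -0.04 and -0.02 without control siFEM1B replicates 1 and 2, and -0.01 and -0.02 without knockout siFEM1B replicates 2 and 3. Krt8 by siRNA in knockout cells was -0.02 without knockout siCTRL replicate 3 and -0.01 without knockout siFEM1B replicate 3. With each library left out in turn, Krt19 by guide ranged from -0.13 to 0.01 under siCTRL and from -0.02 to 0.04 under siFEM1B, Krt8 by guide under siFEM1B from -0.04 to 0.05, and Krt8 by siRNA in knockout cells from -0.02 to 0.06. Krt8 by guide under siFEM1B was newly called with chromosome medians removed (0.14, adjusted p = 0.0486). Krt7 kept every call.

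The count of genes whose siRNA effect differed between genotypes was 807, became 1393 with no filter on low counts (736 higher and 657 lower) and 298 to 1868 when 1 library was left out, highest without knockout siFEM1B replicate 2. Without knockout siFEM1B replicate 1 or 3 it was 298 and 299, without knockout siCTRL replicate 1 or 3 it was 302 and 301, without control siCTRL replicate 3 it was 381 and without control siFEM1B replicate 2 it was 399. DESeq2's own count of genes called lower was 614, against 345 by edgeR. Members called there were 2 with no filter, against 1, the addition being Sprr1a. Same-numbered replicates did not deviate together (18 pairs, correlation -0.11 to 0.08, 0 over 0.1), so the numbers do not pair the samples. With a replicate block the count was 603, the Krt7 difference 0.66 (adjusted p = 0.000327), and no call of the 6 genes changed. The depth limits Sprr2h in knockout cells, at 5 to 19 counts per library.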

Other observations

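Genes of the transitional alveolar state, an intermediate between alveolar cell types in which Krt8, Krt7 and Krt19 are high, were read from a list of 12, all of which passed the filter. In knockout cells under siCTRL 3 were higher and 3 lower, near the 24.2% and 26.3% of all genes, with a median log2 difference of 0.04. Under siFEM1B 7 were higher and 3 lower in control cells (22.1% and 22.9% of all genes) and 6 higher and 2 lower in knockout cells (21.9% and 19.8%). Cdkn1a, a cell cycle inhibitor, rose in control cells (1.28, edgeR adjusted p = 3.9e-08), Sfn rose in knockout cells (1.29, adjusted p = 5.16e-07), and Sox4 fell in both (-0.63 and -0.82, adjusted p = 2.9e-07 and 2.2e-08). The difference of the Cdkn1a effects was -0.97 (adjusted p = 0.00188).

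Of the other intermediate filaments, Prph, the neuronal filament peripherin, had 3 to 4 counts per control library and 12 to 26 per knockout library under siCTRL, and 7 to 13 against 102 to 122 under siFEM1B. Des, the muscle filament desmin, had 31 to 47 against 2 to 9 counts under siCTRL. Both passed the filter through the group where they are high, so no test by guide is given. Lmna, a nuclear lamin, rose by guide under siCTRL (0.35, edgeR adjusted p = 4.66e-06) and by siFEM1B in control cells (0.32, adjusted p = 2.58e-05).

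Of 6 gut markers, 5 passed the filter, and their summed level was 171.9 to 190.7 CPM in control and 259.6 to 262 CPM in knockout cells under siCTRL, and 232.1 to 241.5 against 329.3 to 342.1 CPM under siFEM1B. The keratin Krt20, already described, is among the 5, so the sum is not separate from the keratin values. Krt20 alone stood at 122.8 CPM in control and 135.4 CPM in knockout cells under siCTRL, and at 165.3 against 163.7 CPM under siFEM1B. Of 5 basal squamous markers, Krt5 was at 0 and Trp63 and Ngfr were under 10 counts in every library, while Krt14 passed the filter. The list summed to 0.727 to 0.847 CPM in control and 0.316 to 0.647 CPM in knockout cells under siCTRL, and to 1.41 to 2.19 against 0.486 to 0.965 CPM under siFEM1B. The part of either marker set in the keratin and Sprr results was not tested.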
